A study of Mus musculus with 101 samples.

Results

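Kcnq1ot1 and Igf2r are a pair of imprinted loci at which a maternally methylated CpG island holds the promoter of a long antisense RNA. The members were taken by position, as the target regions of the imprinting category in a window of chromosome 7 and a window of chromosome 17 around the starts of both RNAs (mm10), with every CpG of the CpG table in those windows. This gave 1 region and 47 CpGs at Kcnq1ot1, and 1 region and 17 CpGs at Igf2r. They were 2 of 868 target regions, 2 of 23 regions in the imprinting category, and 64 of 7917 CpGs. Both regions and all 64 CpGs had a value in each of the 85 columns.

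Both imprints are set in the oocyte. On the maternal chromosome the island is methylated and the antisense RNA is silent, while on the paternal chromosome the island is unmethylated, the RNA is made, and protein-coding genes of the cluster are repressed in cis. Kcnq1ot1 starts inside Kcnq1, a potassium channel gene, and silences the growth inhibitor Cdkn1c among others; Airn starts inside Igf2r, the receptor that clears the growth factor Igf2, and silences Igf2r, Slc22a2 and Slc22a3. Naive culture with kinase inhibitors is known to lower DNA methylation across the genome, imprints included.

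Enzymatic methyl sequencing with Twist target capture was applied to embryonic stem cells of mice of the Diversity Outbred stock, which descends from inbred founder strains by random mating. Every line grew in serum and LIF plus the inhibitor pair 2i, so the study has no group in another medium. Lines were grouped by the prefix of their name, which gave 28 B1, 18 B2, 20 B3A and 19 B3B lines. Some column names end in N. Those without a final N numbered 22 of 28 in B1, 18 of 18 in B2, 4 of 20 in B3A and 10 of 19 in B3B. Prefix and final N are thus partly confounded. For 16 columns the line name has 2 library titles, with and without the suffix WA, and which library was used is not given. No source used here says what a prefix, the final N or WA stands for, or gives the genotype, sex or passage of a line. Separate cultures are not stated either, so every p-value refers to the spread from column to column, which may be technical. One name, B1dB37, appears with and without a final N. It read 30.7% with the N and 34.7% without it at Kcnq1ot1, and 29.7% and 31.7% at Igf2r. Both columns were kept and counted as separate lines, although they may be the same line. Cell identity could not be checked against marker expression, since only methylation was measured. The fractions come with no read counts, and their depth is unknown. A fraction averages both parental alleles of all cells, so fewer cells with a methylated copy and less methylation on each copy cannot be told apart.

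The Kcnq1ot1 target (chr7:143295618-143296585, 968 bases) lies in the body of Kcnq1 and straddles the start of the Kcnq1ot1 RNA, which RefSeq places on the minus strand at 143296547. Of the target, 930 bases are inside the transcribed part and 38 are upstream. The promoter is shown because 4 of the measured CpGs fall in its last bases. It covers chr7:143296498-143296797 on the minus strand in RefSeq's GRCm38.p6 table, with 250 bases before the start and 50 after it, and capitals mark the 4 measured CpGs.
Kcnq1ot1 promoter: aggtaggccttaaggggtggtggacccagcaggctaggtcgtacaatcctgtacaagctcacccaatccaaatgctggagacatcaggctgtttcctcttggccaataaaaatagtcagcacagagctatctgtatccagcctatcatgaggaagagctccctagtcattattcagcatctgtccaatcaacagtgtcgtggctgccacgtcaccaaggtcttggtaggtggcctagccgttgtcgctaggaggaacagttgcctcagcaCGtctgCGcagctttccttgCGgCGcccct
These 4 CpGs lie 21, 27, 41 and 44 bases into the RNA, in the order printed, and had mean methylation of 21.3%, 28.4%, 29.5% and 27.1% over the 85 lines. The window holds 9 CpGs, against a median of 7 over all 32851 RefSeq promoters of this length, and 53.3% of its bases are G or C. The letters CCAAT, the CCAAT box, occurred 3 times on the printed strand, 67 to 188 bases before the start, and not on the other; 37.4% of all promoters hold it on either strand. The letters TGCCGC, the core of the motif bound by the imprint-protecting factor Zfp57 when methylated, did not occur on either strand of this window, and 11.6% of all promoters hold them.

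The Igf2r target (chr17:12742174-12742702, 529 bases) lies in the body of Igf2r and in the transcribed part of Airn, 863 to 1391 bases after the Airn start at 12741311 on the plus strand. None of its 17 measured CpGs falls in the Airn promoter window, so that promoter is not shown. The measured CpGs therefore all lie past the RNA start, at different distances: from 21 to 894 bases into Kcnq1ot1, and from 959 to 1331 bases into Airn.

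At Kcnq1ot1 methylation ran from 0.429% to 53.1% with a median of 28.4%, and averaged 27.7% ± 12.97 (SD, n = 85 lines). The lowest line was B3Ad36 and the highest was B3Bd8, which carried the 2 loci at 53.1% and 45.3%. At Igf2r it ran from 0.147% (B3Bd20N) to 58.5% (B1dC17), with a median of 28.5% and a mean of 26.3% ± 13.6 (SD, n = 85). The lowest line at Kcnq1ot1 had 2.44% at Igf2r, and the lowest line at Igf2r had 1.22% at Kcnq1ot1. Both loci thus ran from nearly unmethylated to slightly over 50%.

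Values between 25% and 50% were the most frequent at both loci, in 50 lines at Kcnq1ot1 and 48 lines at Igf2r. A level under 25% was seen in 34 and 36 lines, and a level under 5% in 9 and 7 lines. Each locus had 1 line over 50%, a different line in each case, and neither had a line over 75%. Both loci were under 25% in 26 lines and neither was in 41 lines. Kcnq1ot1 alone was under 25% in 8 lines and Igf2r alone in 10. Both were under 5% in 6 lines, 3 of them B3A and 3 of them B3B.

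B1 and B2 lines were more methylated at both loci than B3A and B3B lines, although the 4 prefixes overlapped widely. At Kcnq1ot1 the lowest, median and highest B1 lines had 11.4%, 35.4% and 47.2%, and the B2 lines 4.65%, 32.7% and 46.5%. The B3A lines had 0.429%, 25.1% and 43.3%, and the B3B lines 1.22%, 20.3% and 53.1%. The means were 33.7% ± 10.04 (SD, n = 28), 30.1% ± 11.1 (n = 18), 23.2% ± 14.4 (n = 20) and 21.2% ± 13.1 (n = 19) in that order. No B1 line fell under 10%, against 5 B3A and 5 B3B lines.

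Igf2r had the same order of means. The lowest, median and highest B1 lines had 8.78%, 34.5% and 58.5% at Igf2r, and the B2 lines 5.69%, 29.96% and 47.8%. The B3A lines had 1.95%, 19.4% and 44.7%, and the B3B lines 0.147%, 15.2% and 45.3%. The means were 33.3% ± 10.97 (SD, n = 28), 29.5% ± 11.05 (n = 18), 20.2% ± 13.2 (n = 20) and 19.3% ± 14.1 (n = 19). Lines under 10% at Igf2r numbered 1 B1, 1 B2, 5 B3A and 6 B3B.

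**Figure D1:**
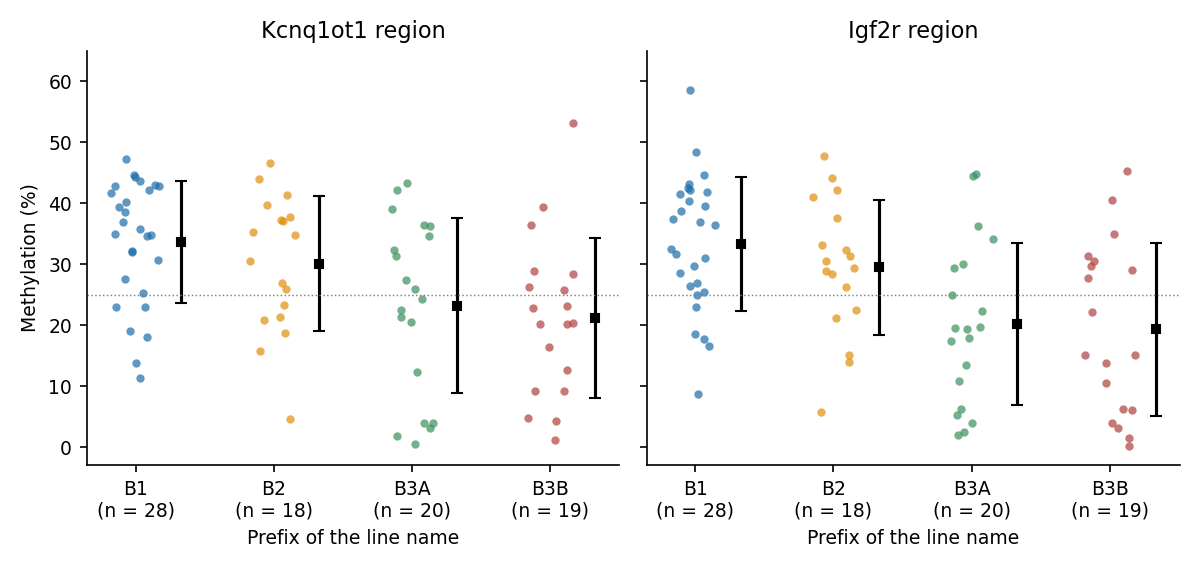
Methylation (%) of the Kcnq1ot1 and Igf2r regions by prefix of the line name. Each point is a line, squares with bars are the mean ± SD, and the dotted line marks 25%; every prefix spans most of the range, and the B1 mean (33.7% and 33.3%) lies above the B3B mean (21.2% and 19.3%) at both loci.

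Differences between prefixes were tested with limma's moderated F test on log2 odds across the 787 regions measured in 80% of lines or more (Benjamini-Hochberg adjusted p under 0.05). Both regions passed, with adjusted p of 0.00349 at Kcnq1ot1 and 0.000467 at Igf2r, and so did 81.6% of all regions tested. A call at these loci was therefore what most target regions gave. Of the 6 pairwise contrasts, 3 passed at both loci.

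B1 exceeded B3A by 1.14 on the log2 odds scale at Kcnq1ot1 (95% interval 0.44 to 1.84, limma adjusted p = 0.00266) and by 1.24 at Igf2r (0.53 to 1.95, adjusted p = 0.00143), where 85.3% of regions passed. B1 exceeded B3B by 1.14 at Kcnq1ot1 (0.42 to 1.85, adjusted p = 0.00713) and by 1.48 at Igf2r (0.76 to 2.20, adjusted p = 0.00254), where 67.2% passed. B2 exceeded B3A by 0.85 at Kcnq1ot1 (0.07 to 1.63, adjusted p = 0.0454) and by 0.95 at Igf2r (0.16 to 1.74, adjusted p = 0.0313), where 72.4% passed. Several of these calls were lost under other settings. Leaving out the 16 columns whose line name has 2 library titles left 69 columns. In these, B1 exceeded B3A by 0.62 at Kcnq1ot1 (limma adjusted p = 0.102) and by 0.78 at Igf2r (adjusted p = 0.0516). B2 exceeded B3A there by 0.23 (adjusted p = 0.642) and 0.46 (adjusted p = 0.348). Without the columns named with a final N, the B1 to B3B difference at Kcnq1ot1 was 0.89 (limma adjusted p = 0.0609). In the same columns, which include 4 B3A lines, the differences from B3A were larger: 1.94 and 2.05 for B1 and 1.74 and 1.85 for B2, at Kcnq1ot1 and Igf2r in that order. The B2 to B3A call at Kcnq1ot1 was also lost with an offset of 0.05, on untransformed fractions and with averages from the CpG table (limma adjusted p = 0.0627, 0.116 and 0.0513), and without the B3A line B3Ad35N, described further on (0.0921). At Igf2r that call was lost on untransformed fractions (limma adjusted p = 0.0508).

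The difference of B2 from B3B, 0.85 and 1.19 on the log2 odds scale, did not pass at either locus (limma adjusted p = 0.169 and 0.117), where 0.254% of regions did. Its 95% intervals, which are not adjusted over regions, were 0.06 to 1.64 at Kcnq1ot1 and 0.39 to 1.99 at Igf2r. B1 and B2 differed by 0.29 at both loci, with intervals from -0.44 to 1.01 at Kcnq1ot1 and to 1.03 at Igf2r. B3A minus B3B was -0.0035 at Kcnq1ot1 (95% interval -0.77 to 0.77) and 0.24 at Igf2r (-0.54 to 1.02). Neither of these contrasts passed at either locus.

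The prefixes also differed over the rest of the panel. The mean of the 764 kept regions outside the imprinting category was 24.3% ± 9.27 (B1), 20.6% ± 8.40 (B2), 12.7% ± 7.68 (B3A) and 15.8% ± 10.5 (B3B), with SDs over lines. A covariate was then added, the mean log2 odds of a line over all 787 kept regions, the members included. With it, the prefix term had a limma adjusted p of 0.775 at Kcnq1ot1 and 0.287 at Igf2r, and 3.56% of regions passed. With each column centred by its mean, the adjusted p was 0.704 and 0.118, and 56.2% of regions passed. Neither locus passed in either of these fits.

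Most single CpGs of both loci differed between prefixes. In the same test over all 7917 CpGs, 41 of 47 CpGs at Kcnq1ot1 and 17 of 17 at Igf2r passed, against 45.2% of all CpGs. CpGs of 1 region share reads and lines and are not replicates, so these counts stand for 2 regions. With the mean log2 odds of a line over all CpGs, the members included, as the covariate, limma called 0 CpGs at either locus. This also held at an unadjusted p under 0.05, while 0.291% of all CpGs passed with adjustment.

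Along each island the level was nearly flat. CpG means ran from 19.95% to 30.3% at Kcnq1ot1 and from 21.7% to 28.4% at Igf2r. Differences between lines made up 76.5% of the variation of single CpG values at Kcnq1ot1 and 79.8% at Igf2r, and differences between CpGs 3.46% and 1.77%. The least methylated CpGs at Kcnq1ot1 were neighbours 816 and 837 bases into the RNA, at 143295731 (19.95% ± 13.6, SD, n = 85) and 143295710 (20.8% ± 14.1). They were above the mean of the other CpGs of the locus in 10 and 13 of 85 lines.

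The CpG closest to the RNA start, 21 bases into Kcnq1ot1 at 143296526, was also low, at 21.3% ± 12.9 (SD, n = 85). It was above the rest of the locus in 16 of 85 lines, whereas the next CpG, 27 bases into the RNA, was above the rest in 52. The highest means were at 143296293 (30.3% ± 15.04) and 143296014 (30.3% ± 14.1), and the largest SD was at 143295772 (29.7% ± 15.8). At Igf2r the lowest CpGs were 12742306 (21.7% ± 13.9) and 12742599 (22.5% ± 15.5). The highest were 12742382 (28.4% ± 13.9) and 12742642 (27.5% ± 16.1), the latter with the largest SD of the locus.

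**Figure D2:**
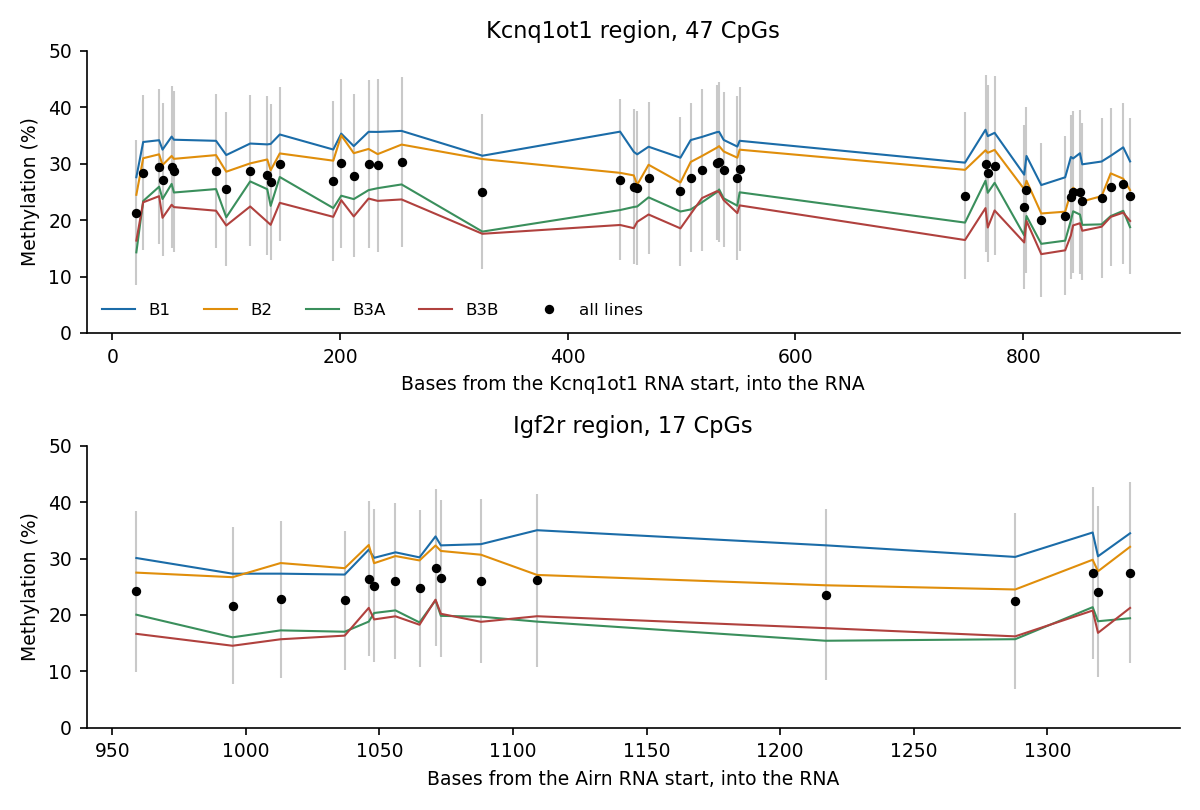
Methylation (%) of each measured CpG against its distance in bases from the RNA start. Black points are means over 85 lines with grey bars of ± 1 SD, and coloured lines join the prefix means; CpG means stay between 19.95% and 30.3% at Kcnq1ot1 and between 21.7% and 28.4% at Igf2r, with B1 and B2 above B3A and B3B.

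With the CpGs split by order, the lower-coordinate ones averaged slightly less methylation at both loci. At neither locus did this difference pass 0.05 under every setting. At Kcnq1ot1 the lower 23 CpGs, the ones farther into the RNA, averaged 26.1% and the upper 24 averaged 27.6%. The difference was -1.51 points ± 4.86 (SD, n = 85 lines) and was positive in 33 lines (two-sided sign-flip permutation test, p = 0.00513, 0.00855 adjusted over 5 sign-flip tests). At Igf2r the lower 8 CpGs, the ones nearer the Airn start, averaged 24.2% and the upper 9 averaged 25.8%. The difference was -1.59 points ± 5.45 and positive in 32 lines (permutation p = 0.00835, adjusted 0.0104). With a split at the midpoint of the coordinates it was 0.0465 points at Igf2r (permutation p = 0.958).

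The CpGs of an island varied together from line to line. Over 1081 pairs of Kcnq1ot1 CpGs the median correlation across the 85 lines was 0.766, and it was 0.952 for 67 pairs within 20 bases and 0.756 for 418 pairs more than 400 bases apart. Igf2r had a median of 0.799 over 136 pairs, and 0.934 for 20 pairs within 20 bases. Pairs that close share reads, and all pairs share libraries. Between the loci, 799 pairs had correlations from 0.545 to 0.785 with a median of 0.687.

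A single CpG seldom exceeded 50%. It did so in 120 of 3995 values at Kcnq1ot1 (3.004%) and in 46 of 1445 at Igf2r (3.18%), with a highest value of 66.7% at each. Values of 0 numbered 177 and 67. Every Kcnq1ot1 CpG was under 10% in 5 lines and every Igf2r CpG was in 9; every CpG was over 25% in 16 and 17 lines.

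Across lines the loci rose and fell together. Pearson's r between them was 0.849 and Spearman's rho 0.851 over 85 lines (permutation p = 1e-05 for each, the smallest that 100000 resamples can give, and 1e-05 adjusted over 4 correlations). It was 0.835 without the 2 lines farthest from the median at Kcnq1ot1. The 4 prefixes taken alone gave r of 0.859 (B1), 0.840 (B2), 0.720 (B3A) and 0.881 (B3B). Leaving out each line in turn gave r from 0.842 to 0.886. For comparison, the median r over the other 22 regions of the imprinting category was 0.822 with Kcnq1ot1 and 0.850 with Igf2r. Over the 764 kept regions outside that category it was 0.623 and 0.633. An r of this size was thus usual among imprinted regions.

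**Figure D3:**
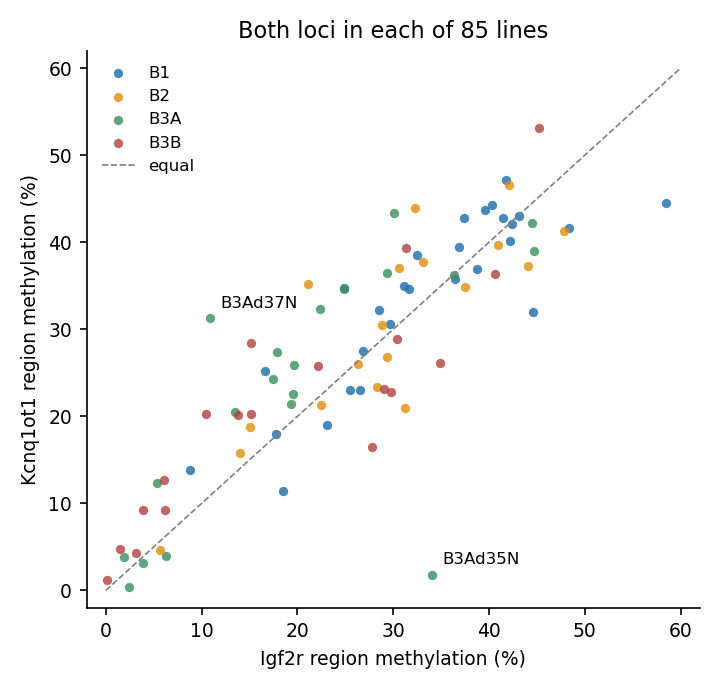
Kcnq1ot1 methylation (%) against Igf2r methylation (%) in each of 85 lines, coloured by prefix, with a dashed line of equality. The loci rise together (r = 0.849), and points scatter around the line of equality, with a difference of 1.35 points ± 7.31 (SD). The largest gap in each direction is in B3Ad35N, at 1.79% and 34.1%, and in B3Ad37N, at 31.3% and 10.8%.

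No average difference in level between the loci was detected. Kcnq1ot1 minus Igf2r was 1.35 points ± 7.31 (SD, n = 85) within a line, positive in 50 lines, with a 95% interval of -0.228 to 2.93 (two-sided sign-flip permutation test, p = 0.0923). By prefix it was 0.333 ± 5.65 (B1), 0.587 ± 6.27 (B2), 2.94 ± 10.4 (B3A) and 1.89 ± 6.72 (B3B), with no difference detected between prefixes (permutation of prefix labels, p = 0.635). Without B3Ad35N the mean was 1.75 points (permutation p = 0.0135), and this was the only one of the 85 lines whose removal brought p under 0.05.

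Both loci also followed the general level of the line. The mean of the 764 kept regions outside the imprinting category ranged from 3.01% to 43.7% (18.9% ± 10.02, SD, n = 85). Its correlation was r = 0.750 and rho = 0.785 with Kcnq1ot1, and r = 0.765 and rho = 0.785 with Igf2r (permutation p = 1e-05 for each, the smallest possible, and 1e-05 adjusted over 4). The values of r were 0.746 and 0.753 without the 2 lines farthest from the median. Within the prefixes B1, B2, B3A and B3B, r was 0.659, 0.812, 0.623 and 0.820 for Kcnq1ot1, and 0.619, 0.805, 0.652 and 0.822 for Igf2r. No difference between the loci in r was detected (difference -0.0147, two-sided swap permutation, p = 0.729).

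Per point of methylation at the other regions, Kcnq1ot1 rose by 0.971 points and Igf2r by 1.04 points, with fitted levels of 9.32% and 6.73% where the other regions would be at 0. The lines scattered around these fits with an SD of 8.63 and 8.80 points. The residuals at the 2 loci were themselves correlated, with r = 0.647 and rho = 0.630 (permutation p = 1e-05 for each), and r = 0.726 without the 2 farthest lines. A line high at Kcnq1ot1 for its general level thus tended to be high at Igf2r.

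**Figure D4:**
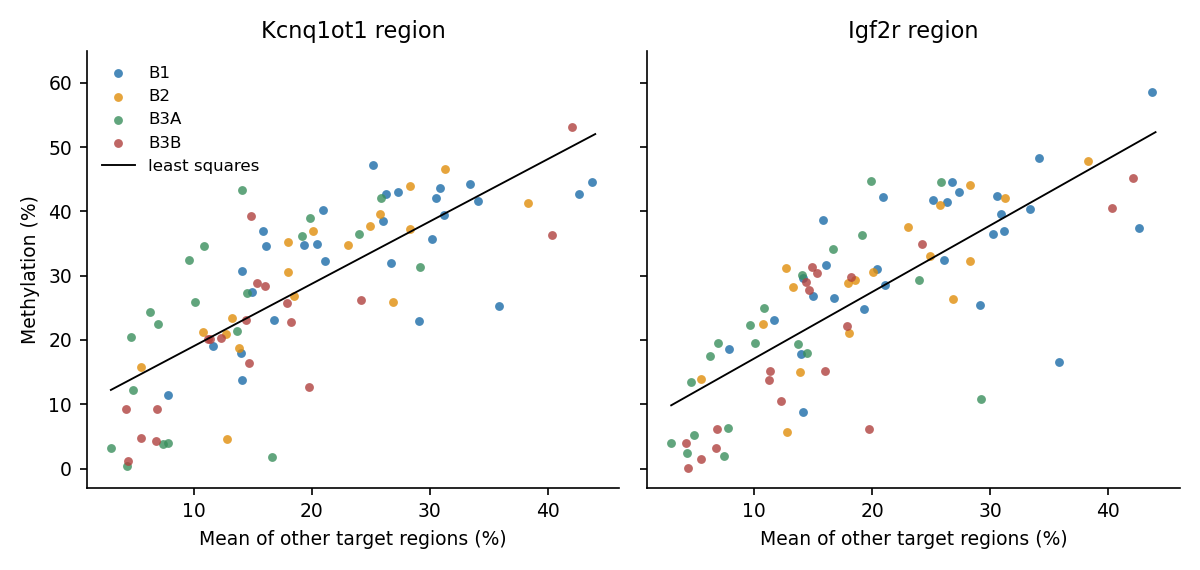
Kcnq1ot1 and Igf2r methylation (%) against the mean of 764 other target regions (%) in each of 85 lines, coloured by prefix, with the least squares line. Both rise with the other regions (r = 0.750 and 0.765), with slopes of 0.971 and 1.04.

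Among 19 germline imprinted loci on the panel, Kcnq1ot1 ranked 4 and Igf2r 6 by mean methylation, from the highest. Their neighbours in that order were the Dlk1-Meg3 intergenic region (28.03% ± 11.3), above Kcnq1ot1, Snrpn (27.3% ± 12.2), between the members, and Mest (23.6% ± 13.4), below Igf2r. These gaps are small beside the SDs over lines and were not tested. Within a line Kcnq1ot1 exceeded the mean of the other 17 loci by 4.30 points ± 5.88 (SD, n = 85), in 65 of 85 lines (sign-flip permutation p = 1e-05, adjusted 5e-05). Igf2r exceeded it by 2.95 points ± 5.90, in 61 of 85 lines (permutation p = 5e-05, adjusted 0.000125).

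The largest gap between the loci was in B3Ad35N. In this B3A line Kcnq1ot1 had 1.79% and Igf2r 34.1%, a gap of -32.3 points, with 16.7% at the other regions. At Kcnq1ot1 28 of 47 CpGs read 0 and the highest read 8%, while the 17 Igf2r CpGs lay between 22.2% and 36.4%. Peg10, a retrotransposon-derived placental gene, had 0.128%, the lowest of the 85 lines. The other 16 loci had 11.2% or more, among them H19 at 26.4%, Snrpn at 25.9%, Mest at 27.2% and Peg13 at 45.4%. The mean of the 17 loci other than the members was 23.2%.

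The opposite gap was largest in B3Ad37N, also B3A, with 31.3% at Kcnq1ot1 and 10.8% at Igf2r (20.5 points). Its other regions were at 29.2%, its Kcnq1ot1 CpGs between 17.6% and 53.6%, and its Igf2r CpGs between 4.17% and 15.4%. Impact, an imprinted gene that encodes a translational regulator, was at 4.65% and was the only one of the 17 loci other than the members under 10%, while Mest stood at 16.6% and Snrpn at 36.8%. The next largest gaps toward Igf2r were -14.0 points in B1dC17 and -12.6 in B1dA9N, and those toward Kcnq1ot1 14.1 points in B2d18 and 13.3 in B3Ad33N. In none of these 4 lines was a member under 20%.

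**Figure D5:**
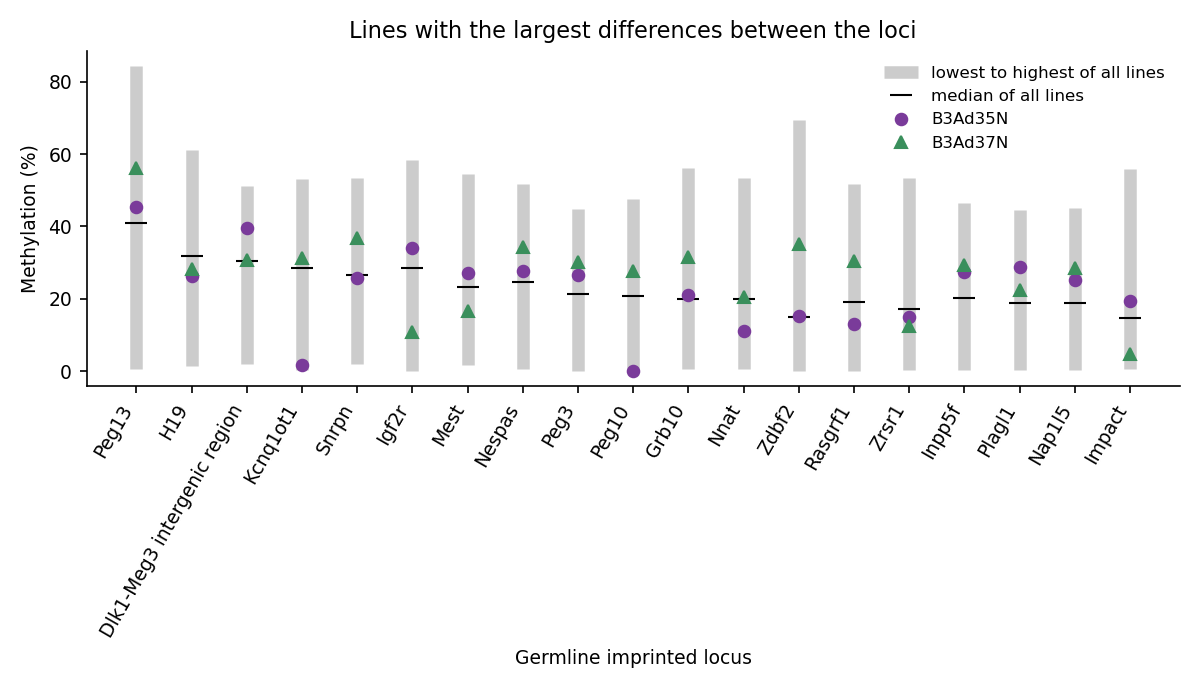
Methylation (%) of 19 germline imprinted loci, ordered by mean, in B3Ad35N (circles) and B3Ad37N (triangles), with the median (dash) and the range (grey bar) of all lines. B3Ad35N lies near 0 at Kcnq1ot1 (1.79%) and Peg10 (0.128%) and at 11.2% or more elsewhere; B3Ad37N is low at Igf2r (10.8%) and Impact (4.65%).

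The regions whose levels followed the members most closely over the 85 lines were other maternally methylated imprints. For Kcnq1ot1 they were those of Peg10 and its neighbour Sgce (r = 0.928), of Mest, an imprinted hydrolase-like gene (0.881), and of Peg3 and Usp29 (0.878). For Igf2r they were Mest (0.902), Peg3 and Usp29 (0.889), and Grb10, a growth-restraining adaptor gene (0.886). These are descriptions over lines that share libraries, with no test. Among 786 regions Igf2r had rank 8 for Kcnq1ot1, and Kcnq1ot1 had rank 14 for Igf2r.

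After both sides were taken as residuals on the other regions, the same 3 regions led for each locus. The values of r were 0.825 for Peg10, 0.699 for Mest and 0.692 for Peg3 with Kcnq1ot1, and 0.742 for Mest, 0.709 for Peg3 and 0.696 for Grb10 with Igf2r. The median residual r was 0.580 for Kcnq1ot1 and 0.615 for Igf2r over the other 22 regions of the imprinting category, against -0.0564 and -0.0533 over the 764 other regions. Without B3Ad35N, r of Kcnq1ot1 was 0.926 with Peg10 and 0.909 with Mest, and r of Igf2r was 0.902 with Mest and 0.884 with Peg10.

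Other genes of both clusters were nearly out of reach of the panel. Of 15 listed genes around Kcnq1, 2 had a target region within 5 kb, Kcnq1 itself, through the Kcnq1ot1 region, and H19, whose paternally methylated control region regulates the neighbouring Igf2 domain. Of 9 listed genes around Igf2r, 8 were matched in the gene table and 2 had a region: Airn, through the Igf2r region, and Slc22a3. Cdkn1c, Phlda2, Slc22a18 and Slc22a2 had no region within that distance.

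The Slc22a3 region (chr17:12507709-12508209) begins 5 bases beyond the end of this organic cation transporter gene in the table, on the side of its start, and the authors placed it in the category aging_Young. It ran from 1.77% to 63.6% with a median of 19.8% (23.02% ± 14.97, SD, n = 85). Its r was 0.978 with the mean of other regions, 0.773 with Igf2r and 0.765 with Kcnq1ot1. H19 ran from 1.47% to 61.1% with a median of 31.9% (31.2% ± 15.5), with r of 0.882 with the other regions, 0.844 with Igf2r and 0.820 with Kcnq1ot1. Both differed between prefixes (limma adjusted p = 0.000729 and 0.000102), and neither passed with the mean level of the line as covariate (limma adjusted p = 0.237 and 0.191).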

How the data were processed

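The authors deposited methylation fractions (0 to 1) for 868 target regions, with a fraction per CpG for 7917 CpGs in another table, each with 85 columns. The region table also marks missing values and holds a column of other values, named DropOut per the file headers. Both regions had 0 missing values. The names of the deposited tables state a coverage filter of 10, without saying whether it held per CpG or per region. Trim Galore 0.6.4, Bismark, Bowtie2 and mm10 are named in the submitters' processing notes, with no roles or settings. Few and many reads behind a fraction could not be told apart, and no counting interval was computed. Fractions are printed as percent.

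The labels list 101 libraries. Of the 85 columns, 44 matched 1 title; 41 were used only by prefix (16 with 2 titles, 24 with a final N that the title lacked, 1 with no title). No columns were identical.

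Log2((fraction + 0.01)/(1 - fraction + 0.01)) was fitted over 787 regions with values in at least 80% of columns, or over all CpGs, with limma 3.58.1 in R 4.3.3. Permutations used 100000 resamples (Python 3.11.15, NumPy 2.4.6, pandas 2.3.3, SciPy 1.17.1; plots with matplotlib 3.10.9). The limma fit was also run on simulated data drawn independently for each region and line. The regions here share the level of a line, which those data do not copy. The CpGs, lines and regions named follow fixed rules: the 2 highest and 2 lowest CpG means and the largest SD of each locus, the 3 largest gaps each way, the extreme lines, the 3 regions most alike, and listed cluster genes. The members and lists were chosen with earlier results of these data known. Gene positions and the promoter come from RefSeq tables of GRCm38.p6, which share mm10 coordinates but hold no exons, so overlap with a gene is given without exon or intron. Alternatives were other offsets and scales, missing-value filters, the line level as covariate, centring, column subsets, averages from the CpG table, and a left-out line.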

Additional observations from a re-analysis of the deposited data

How the results depend on the processing

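Of the alternative values computed, 128 kept their direction and side of the threshold, 28 no longer passed, 3 newly passed, 5 counts moved and 5 changed sign. Kcnq1ot1 minus Igf2r was 1.81 points in the 69 columns without 2 titles (permutation p = 0.0483) and 1.86 from the CpG table (p = 0.0157). It was 1.75 without B3Ad35N (permutation p = 0.0135), an alternative chosen after seeing the data. Leaving out any other line gave 1.12 points at the lowest. Igf2r minus the other loci was 1.82 points in B3A alone (permutation p = 0.241). The difference of the loci in r with the other regions was 0.0123 without columns named with a final N and 0.0134 from the CpG table (permutation p = 0.758 and 0.778). Between the lower and upper CpGs, Kcnq1ot1 gave -1.29 points without final N columns (permutation p = 0.0607). Igf2r gave -0.0931 on the log odds scale (permutation p = 0.137), -1.16 in columns without 2 titles (p = 0.091) and 0.0465 with a midpoint split (p = 0.958). The prefix test had limma adjusted p of 0.775 and 0.287 with the covariate, and 0.704 and 0.118 with centring; centring also turned the Kcnq1ot1 differences of B1 and B2 from B3A to -0.0375 and -0.0349. CpGs called at Kcnq1ot1 numbered 0 with the covariate, 9 in columns without 2 titles and 14 without final N columns. At Igf2r they numbered 0 with the covariate, 13 in columns without 2 titles and 11 without final N columns. The share of all CpGs called in these column subsets is not given. The subset counts therefore cannot be read as a result about the loci. The subsets without 2 titles and without a final N hold fewer columns. Causes of the other changes were not tested. Depth could not be weighed, since the tables hold no read counts. No paired analysis was possible because the labels give the prefixes no shared replicate numbers, and numbers assigned in accession order only name a column.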
